A study of Mus musculus with 6 samples.

Results

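The genes described here encode the collagen chains of the mouse, the structural proteins of the extracellular matrix, measured in the left ventricle 9 days after transverse aortic constriction (TAC), a surgical narrowing of the aorta that overloads the heart with pressure. They were taken as the protein-coding genes whose symbol is Col, a number, the letter a and a number, and 44 of the 47729 genes in the deposited table met that rule. The 3 control libraries and the 3 Treg libraries all came from operated mice, and no unoperated hearts were analysed here. The title of the series describes systemic administration of regulatory T cells that were induced in vitro and deprived of CD28, a costimulatory receptor of T cells, and asks about remodelling from pressure-overload fibrosis. The sources used here do not give the treatment of the control mice, nor the strain, sex and age of any mouse. The labels describe the tissue as cardiomyocytes and other cells, and ventricular muscle genes were high in each library, with Myh6, the adult cardiac myosin heavy chain, at 12476 to 24086 CPM (counts as a share of the library, whose size was scaled by TMM).

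A collagen molecule is a triple helix of chains built on a repeated glycine motif, and which chains are made decides where the molecule goes. Fibrillar collagens form the cables of the interstitium, with types I and III as the bulk of the scar and type V as a regulator of fibril width. Type IV chains form the sheet of the basement membrane around cardiomyocytes and vessels, type VI forms beaded filaments beside it, and the FACIT collagens (fibril-associated collagens with interrupted triple helices) decorate fibrils. In the heart, fibroblasts are the main source of fibrillar collagen and pressure overload is known to raise it, while endothelial cells and pericytes also make type IV. In bulk tissue, fewer cells of a type and less RNA per cell cannot be told apart.

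The sequences at the start sites of the genes that the results turn on are shown first, to let the chains be seen as genes as well as values. They are RefSeq sequences on GRCm38.p6, printed 5′ to 3′ on the gene's own strand, with capitals marking any match on either strand to CCAAT (the box bound by NF-Y), GGGCGG (the GC box of Sp1 factors) or TATAAA. Col5a3 is the chain with the smallest p in the comparison, Col6a6 the chain with the smallest p among those higher in the Treg libraries, and Col3a1 the most abundant chain. Each stretch ends where the first exon annotated by RefSeq or GENCODE begins.
Col5a3, chr9:20815068-20815317, minus strand: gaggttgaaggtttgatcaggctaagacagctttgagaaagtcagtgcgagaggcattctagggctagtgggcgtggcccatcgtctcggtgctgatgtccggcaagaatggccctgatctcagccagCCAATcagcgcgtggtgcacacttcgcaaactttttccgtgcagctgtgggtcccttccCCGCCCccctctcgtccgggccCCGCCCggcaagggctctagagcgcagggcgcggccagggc
Col6a6, chr9:105828161-105828335, minus strand: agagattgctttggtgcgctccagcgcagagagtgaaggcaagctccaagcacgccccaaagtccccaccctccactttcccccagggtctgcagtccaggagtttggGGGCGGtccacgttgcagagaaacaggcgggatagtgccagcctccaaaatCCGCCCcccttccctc
Col3a1, chr1:45311288-45311537, plus strand: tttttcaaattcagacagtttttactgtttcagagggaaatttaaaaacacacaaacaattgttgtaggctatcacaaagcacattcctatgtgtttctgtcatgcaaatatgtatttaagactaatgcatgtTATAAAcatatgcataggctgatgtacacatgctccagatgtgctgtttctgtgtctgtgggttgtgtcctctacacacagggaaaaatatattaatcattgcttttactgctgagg

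The Col5a3 stretch held 1 CCAAT match and 2 GC box matches, the Col6a6 stretch 2 GC box matches, and the Col3a1 stretch 1 TATAAA match and no match to the other motifs. The RefSeq promoter table held 38 windows for 35 of the 44 genes. In the 250 bases upstream of the start site, GGGCGG was found in 57.9% of the collagen windows against 32.7% of all 32851 windows in the table. For CCAAT the shares were 34.2% and 33.8%, and for TATAAA 13.2% and 12.4%. A match is a description of the letters and does not show that a factor binds there.

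Type IV genes lie in head-to-head pairs. Col4a1 starts on the minus strand of chromosome 8 at 11312826 and Col4a2 on the plus strand at 11312805, so that the first bases of both transcripts overlap by 22 bases. That stretch is shown because both genes begin in it, and its capitals mark a GC box.
Col4a1 and Col4a2, chr8:11312805-11312826, plus strand: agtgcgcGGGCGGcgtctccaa

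Col4a4 and Col4a3 on chromosome 1 are also head to head, with 71 bases between them, and Col4a6 and Col4a5 on chromosome X are 1308 bases apart. Col3a1 and Col5a2 lie tail to tail on chromosome 1 with 24614 bases between them, and Col6a6, Col6a5 and Col6a4 follow each other on chromosome 9. These coordinates are from GENCODE M21 on GRCm38, numbered from 1.

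Library totals were 28939759 to 29981410 counts after rounding. The 44 genes held 0.718%, 1.03% and 0.777% of all counts in control replicates 1, 2 and 3 and 0.676%, 0.378% and 0.873% in Treg replicates 1, 2 and 3. The groups overlapped (0.843% ± 0.167 and 0.642% ± 0.249, mean ± SD, n = 3, as throughout). Treg replicate 2 was the lowest of all 6 libraries and control replicate 2 the highest. Control replicate 3 stood apart across the genome, with 850 of 17365 tested genes more than 2-fold below each other library and 422 more than 2-fold above, against 12 to 91 and 4 to 54 in the other 5 libraries. Treg replicate 3 held transcripts of atrial muscle, with Myl7, the atrial myosin light chain, at 1202 counts against 1 to 6 elsewhere. For the genes in which either library stood apart, values are also given without it.

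Of the 44 genes, 35 passed the filter on low counts and were tested. The other 9 did not pass. They were the fibrillar chains Col2a1 (cartilage collagen, 3 to 23 counts per library) and Col24a1 (3 to 30), Col4a6 (2 to 13), Col6a4 (1 to 4), Col9a1 (0 to 1), Col19a1 (0 to 5), Col10a1 (the collagen of growth-plate cartilage, 0 to 8), and the transmembrane chains Col17a1 (4 to 10) and Col25a1 (2 to 10). Fitted without the filter by edgeR, they had adjusted p of 0.527 to 0.834. The groups did not overlap for 1 of the 9, where 18.4% of all genes in that fit did not. It was Col6a4, at 4, 3 and 2 counts in control and 1 in each Treg library. At such counts this depth allows little to be said of them.

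Levels of different genes are compared per kilobase of the main transcript. On that scale Col3a1 was highest, at 348 CPM per kb over all 6 libraries, followed by Col1a2 at 175, Col4a1 at 130, Col1a1 at 122 and Col4a2 at 97.1. Then came Col6a1 (57.2), Col5a2 (56.9) and Col6a2 (55.9), whose levels were close together, and Col8a1 (51.5) and Col15a1 (43.6). At the low end were Col22a1 (0.106) and Col9a3 (0.127). The left ventricle after TAC thus held chiefly transcripts of types III, I and IV.

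By edgeR's quasi-likelihood test 0 of the 35 collagen genes had an adjusted p under 0.05, and 0% of all 17365 tested genes did. The smallest adjusted p among the collagen genes was 0.0871, for Col5a3, which ranked 15 among all genes by p. At an unadjusted p under 0.05 there were 6 of 35 collagen genes (17.1%), against 16.5% of all tested genes. Of the 6, 4 were lower and 2 higher in the Treg libraries, against 8.31% and 8.23% of all genes. In 6 of 35 (17.1%) every Treg library lay to one side of every control library, against 25.4% of all tested genes (11.7% lower and 13.7% higher). By the first measure the share of collagen genes was near that of all genes, and by the second it was below it. The same 6 genes met both measures: Col5a3, Col5a2, Col4a1 and Col4a2 with lower values in the Treg libraries, and Col6a6 and Col22a1 with higher values. DESeq2 gave an adjusted p under 0.05 for these 6 and for 3.74% of all tested genes (1.89% lower and 1.85% higher), while limma-voom gave 0 collagen genes and 0% of all genes (8 collagen genes and 2816 genes at an unadjusted p under 0.05).

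**Figure D1:**
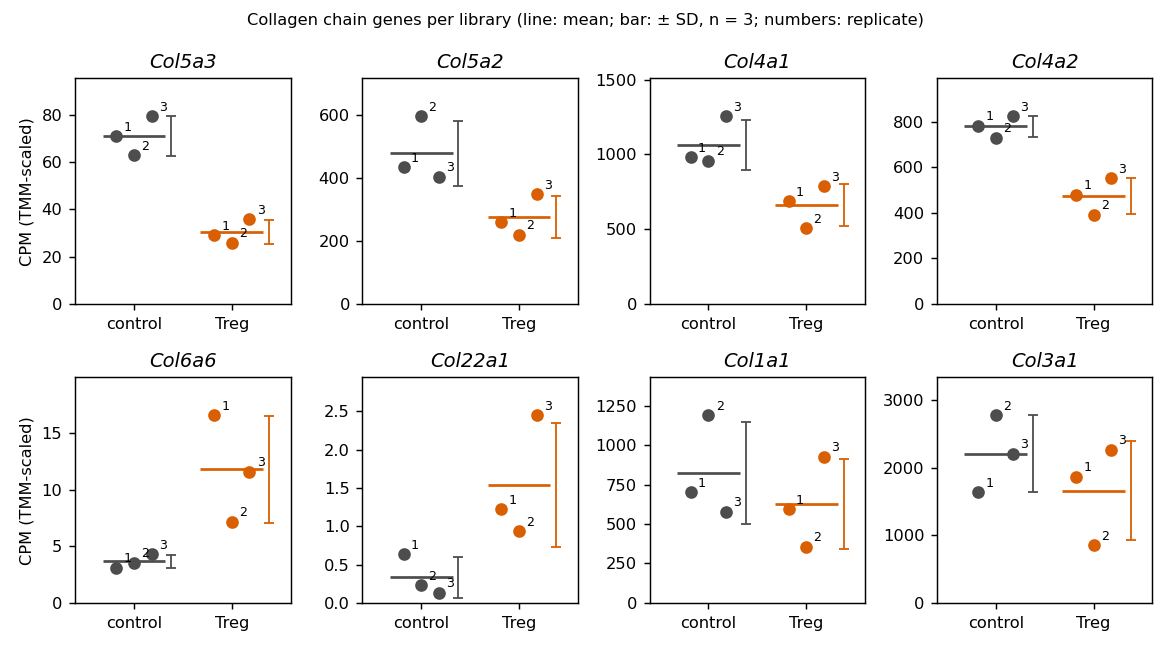
Level of 8 collagen genes in CPM (TMM-scaled, axis from 0) for each control (grey) and Treg (orange) library, with the replicate number beside each point, the mean as a line and the SD as a bar (n = 3). In Col5a3, Col5a2, Col4a1, Col4a2, Col6a6 and Col22a1 the groups do not overlap; in Col1a1 and Col3a1 they do, and Treg replicate 2 is lowest.

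In the fibrillar class the groups overlapped for the bulk chains and for Col5a1 of type V. They did not overlap for the other type V chains, Col5a2 and Col5a3. Over the class this was 2 of 9 tested genes (22.2%), a share below the 25.4% of all genes. Col3a1, the chain of type III collagen, stood at 1639, 2782 and 2209 CPM in control replicates 1 to 3 and at 1870, 856 and 2266 in Treg replicates 1 to 3. Col1a1, the major chain of type I collagen, stood at 703, 1191 and 577 CPM in the controls and at 594, 356 and 927 in the Treg libraries. Col1a2, its partner chain, stood at 914, 1448 and 781 CPM and at 859, 504 and 1117. In all 3 genes Treg replicate 2 was lowest and control replicate 2 highest, and the other 4 libraries were mixed. Their log2 fold changes, Treg minus control, were −0.41 ± 0.37 (SE), −0.40 ± 0.39 and −0.34 ± 0.34, with edgeR adjusted p of 0.578, 0.617 and 0.619. Leaving out 1 library moved Col1a1 between −0.79 (without Treg replicate 3) and −0.04 (without control replicate 2), and Col3a1 between −0.70 (without Treg replicate 3) and −0.09 (without Treg replicate 2). Without both control replicate 3 and Treg replicate 3, Col3a1 had −0.71, Col1a1 −1.01 and Col1a2 −0.81 (edgeR adjusted p = 0.502, 0.236 and 0.308).

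Col5a3 encodes the third chain of type V collagen, which joins the commoner chains in a minor form of the molecule. It stood at 71.0, 62.9 and 79.6 CPM in the controls and at 29.1, 26.0 and 36.0 in Treg replicates 1 to 3. The lowest control value was above the highest Treg value by a wide margin, and no library of either group stood apart. The means were 71.2 ± 8.35 and 30.4 ± 5.14 CPM, a log2 fold change of −1.23 ± 0.16, or 2.34-fold lower, with edgeR adjusted p = 0.0871. Without control replicate 3 the fold change was −1.14 and the edgeR adjusted p 0.0237, and it was the 1 collagen gene that passed, where 1.30% of all genes did. Without both control replicate 3 and Treg replicate 3 it was −1.29 with an edgeR adjusted p of 0.0251, where 0.684% of all genes passed. It was also the 1 collagen gene that passed with limma-voom and sample quality weights (adjusted p = 0.0183, where 1.52% of all genes passed) and with edgeR without a filter on low counts (adjusted p = 0.0320, where 0.131% did). Over all 16 alternatives the fold change lay between −1.37 and −1.13, and the adjusted p between 1.26e-07 (DESeq2) and 0.496 (edgeR without Treg replicate 1).

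Col5a2, a chain of the common type V molecule, stood at 435, 597 and 404 CPM in the controls and at 259, 220 and 349 in the Treg libraries. Each Treg library was below each control, with Treg replicate 3 the nearest. The log2 fold change was −0.80 ± 0.23, with edgeR adjusted p = 0.210 and DESeq2 adjusted p = 0.0311. Col5a1, the other chain of that molecule, stood at 268, 369 and 352 CPM and at 219, 148 and 288, so that Treg replicate 3 lay above control replicate 1. Its log2 fold change was −0.59 ± 0.26 (edgeR adjusted p = 0.305).

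The remaining fibrillar chains are minor ones in the heart. Col11a1, a type XI chain best known from cartilage and from activated fibroblasts, stood at 40.3, 62.1 and 5.82 CPM in the controls and at 15.2, 18.7 and 26.8 in the Treg libraries. Its control group held both the highest value and the lowest, and the log2 fold change of −0.83 ± 0.69 had an edgeR adjusted p of 0.550. Leaving out control replicate 3 gave −1.34 ± 0.28 (edgeR adjusted p = 0.0924). Col27a1 had a log2 fold change of 0.17 and Col11a2 of 0.75 ± 0.32 (edgeR adjusted p = 0.679 and 0.305). Of the 9 fibrillar genes tested, 7 had a fold change below 0, where 52.0% of all genes did, and their median was −0.41, against −0.02 for all genes. That median was −0.79 without Treg replicate 3 and −0.11 without Treg replicate 2.

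In the basement membrane class the ubiquitous pair and the minor chains differed in pattern. Col4a1, which with Col4a2 makes the common type IV molecule, stood at 979, 956 and 1256 CPM in the controls and at 687, 507 and 786 in the Treg libraries. Col4a2 stood at 783, 730 and 825 CPM and at 479, 392 and 551. For both genes each Treg library lay below each control, and within the Treg group replicate 2 was lowest and replicate 3 highest. Over the class the groups did not overlap for 2 of 5 tested genes, the only class with a share above the 25.4% of all genes. The log2 fold changes were −0.69 ± 0.21 for Col4a1 (edgeR adjusted p = 0.220, DESeq2 0.0406) and −0.72 ± 0.17 for Col4a2 (edgeR adjusted p = 0.164, DESeq2 0.00293). Over the omissions of 1 library they lay between −0.83 and −0.53 and between −0.84 and −0.60.

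The chains of the specialised type IV networks, best known from kidney and testis, were tested in 3 genes. Col4a5 stood at 141, 113 and 25.7 CPM in the controls and at 92.2, 84.6 and 94.9 in the Treg libraries. Col4a4 stood at 18.0, 9.07 and 4.44 CPM and at 19.0, 9.66 and 16.5. Col4a3 stood at 10.1, 3.44 and 1.92 CPM and at 7.78, 5.95 and 6.15. In all 3 control replicate 3 was the lowest of the 6 libraries while it was the highest for Col4a1 and Col4a2, and the Treg values lay within the range of the controls except Col4a4 in Treg replicate 1. Their log2 fold changes were −0.04 ± 0.52, 0.52 ± 0.48 and 0.37 ± 0.54 (edgeR adjusted p = 0.974, 0.589 and 0.742). Without control replicate 3 they were −0.49, 0.16 and −0.02 (edgeR adjusted p = 0.115, 0.881 and 0.987), and without control replicate 1 Col4a5 had 0.39. Of the 5 tested genes of the class 3 had a fold change below 0, with a median of −0.04 that ran from −0.49 without control replicate 3 to 0.39 without control replicate 1.

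Among the beaded collagens the main type VI chains overlapped and Col6a6 stood apart. Over the class the groups did not overlap for 1 of 5 tested genes, a share below the 25.4% of all genes. Col6a1 stood at 237, 265 and 175 CPM in the controls and at 288, 153 and 289 in the Treg libraries, a log2 fold change of 0.11 ± 0.27. Col6a2 stood at 228, 266 and 193 CPM and at 243, 134 and 260 (−0.11 ± 0.26), and Col6a3, the longest chain of the molecule, at 107, 218 and 199 and at 158, 85.1 and 189 (−0.28 ± 0.35). Treg replicate 2 was again lowest in these 3 genes and the other libraries were mixed (edgeR adjusted p = 0.860, 0.852 and 0.695).

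Col6a6 encodes an alternative chain that can stand in for the one made from Col6a3. It stood at 3.12, 3.57 and 4.31 CPM in the controls, from 89 to 128 counts, and at 16.6, 7.18 and 11.6 CPM in the Treg libraries, from 199 to 503 counts. The controls were close together and each Treg library was above them. The log2 fold change was 1.68 ± 0.31, or 3.21-fold higher, with edgeR adjusted p = 0.116 and DESeq2 adjusted p = 0.000105. It lay between 1.36 without Treg replicate 1 and 1.94 without Treg replicate 2. Its neighbour and relative Col6a5 stood at 2.25, 1.69 and 2.02 CPM and at 1.62, 1.33 and 2.29, a log2 fold change of −0.18 ± 0.27. Many deposited values are fractional, and values of such close relatives are uncertain should shared reads have been split between them. Per kilobase Col6a6 was low, at 0.880 CPM per kb against 17.7 for Col6a3.

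**Figure D2:**
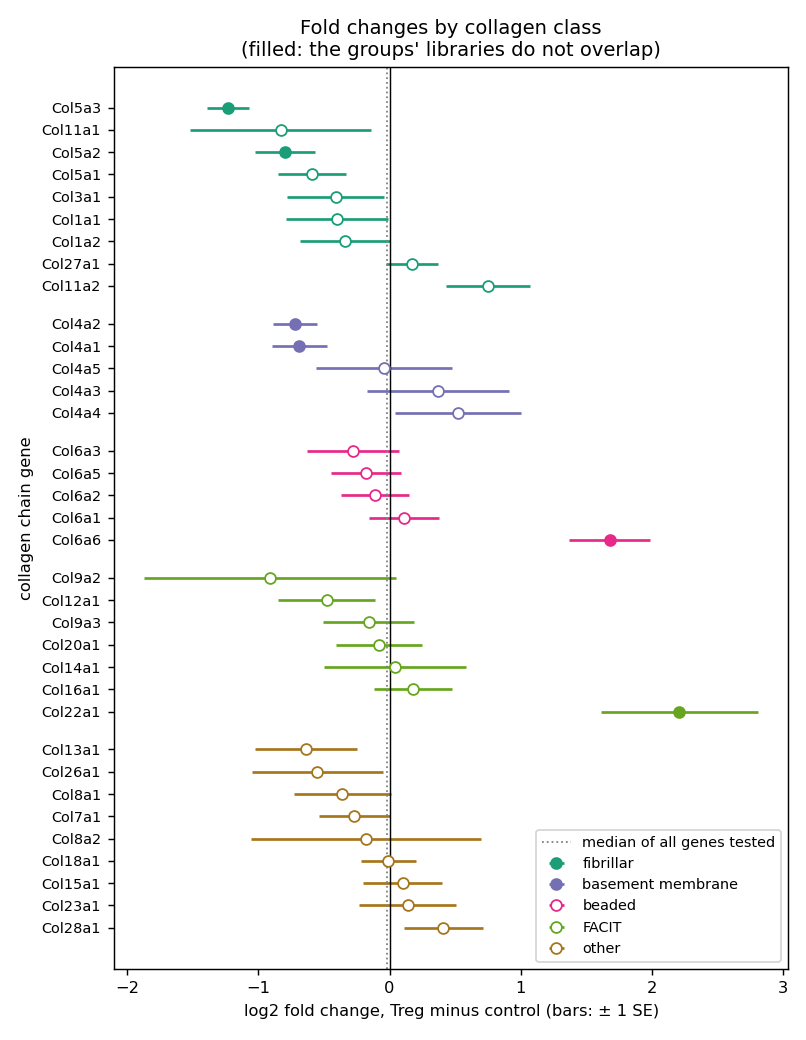
Log2 fold change, Treg minus control, from edgeR for the 35 tested collagen genes, ordered within each class, with bars of 1 SE. Filled points mark the 6 genes whose groups do not overlap, the dotted line the median of all tested genes (−0.02); Col5a3 (−1.23) is the lowest and Col22a1 (2.21) the highest.

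In the FACIT class the groups did not overlap for 1 of 7 tested genes (14.3%, against 25.4% of all genes), a gene of low level. Col22a1, known from the junction of muscle and tendon, stood at 0.632, 0.232 and 0.135 CPM in the controls and at 1.22, 0.938 and 2.45 in the Treg libraries. These are 18, 7 and 4 counts and 37, 26 and 78 counts, and the gene passed the filter mainly through its Treg libraries, so that its presence among the tested genes depended on the difference. The log2 fold change was 2.21 ± 0.60 (edgeR adjusted p = 0.194, DESeq2 0.0334), and 1.70 without Treg replicate 3, the highest library. That library also held the atrial transcripts, and their part in this value was not tested.

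Col14a1, a FACIT of resting fibroblasts, stood at 176, 180 and 37.0 CPM in the controls and at 158, 91.1 and 154 in the Treg libraries (log2 fold change 0.04 ± 0.54). Col12a1, a FACIT of tendon and loaded connective tissue, stood at 34.6, 77.1 and 40.9 CPM and at 28.6, 27.2 and 53.9 (−0.48 ± 0.37). Col16a1 stood at 62.1, 73.5 and 32.5 CPM and at 64.6, 49.7 and 76.1 (0.18 ± 0.30). All 3 overlapped between the groups, and control replicate 3 was lowest for Col14a1 and Col16a1 but not for Col12a1 (edgeR adjusted p = 0.977, 0.528 and 0.777). Without control replicate 3 the signs of Col14a1 and Col16a1 turned, to −0.41 and −0.10. Col9a2, a cartilage FACIT chain, stood at 13.9, 10.7 and 0.303 CPM in the controls and at 5.47, 2.34 and 5.40 in the Treg libraries. Its 2 highest values and its lowest were all in control libraries (−0.91 ± 0.96, edgeR adjusted p = 0.639). It was −1.48 ± 0.35 without control replicate 3 (edgeR adjusted p = 0.103). Col20a1 and Col9a3 had −0.08 and −0.16. The class median of the 7 tested genes was −0.08.

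The other collagens showed 0 of 9 tested genes with groups apart, against 25.4% of all tested genes. Col8a1, a short network-forming chain of vessels and remodelling tissue, stood at 319, 422 and 148 CPM in the controls and at 214, 185 and 292 in the Treg libraries (log2 fold change −0.36 ± 0.37). Its partner Col8a2 stood at 16.8, 13.2 and 0.471 CPM and at 8.51, 7.36 and 11.1 (−0.18 ± 0.88). Col15a1 and Col18a1 are the multiplexins, proteoglycans at the basement membrane of capillaries and muscle fibres, and Col18a1 is the precursor of endostatin. Col15a1 stood at 235, 273 and 145 CPM and at 248, 156 and 294 (0.10 ± 0.30), and Col18a1 at 22.6, 30.0 and 22.1 and at 29.2, 18.6 and 26.5 (−0.01 ± 0.21). In these 4 genes the Treg values lay inside or near the control range (edgeR adjusted p = 0.622, 0.933, 0.887 and 0.987). Without control replicate 3, the lowest library for Col8a1 and Col8a2, these chains had −0.69 ± 0.22 and −0.74 ± 0.19 (edgeR adjusted p = 0.158 and 0.106). The rest were at a few CPM. Col13a1, a transmembrane chain, stood at 3.72, 1.26 and 2.19 CPM in control and 1.65, 1.62 and 1.32 in Treg libraries (−0.64 ± 0.39). Col26a1 stood at 2.21, 3.74 and 2.05 CPM and at 2.47, 0.613 and 2.36 (−0.55 ± 0.50). Col28a1, known from peripheral nerve, stood at 2.28, 3.84 and 2.12 CPM and at 4.65, 3.21 and 3.08 (0.41 ± 0.30). Their edgeR adjusted p were 0.433, 0.584 and 0.509, in that order. Col7a1, the anchoring fibril of skin, had −0.27 and Col23a1 0.14. The class median was −0.18, with 6 of 9 below 0.

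**Figure D3:**
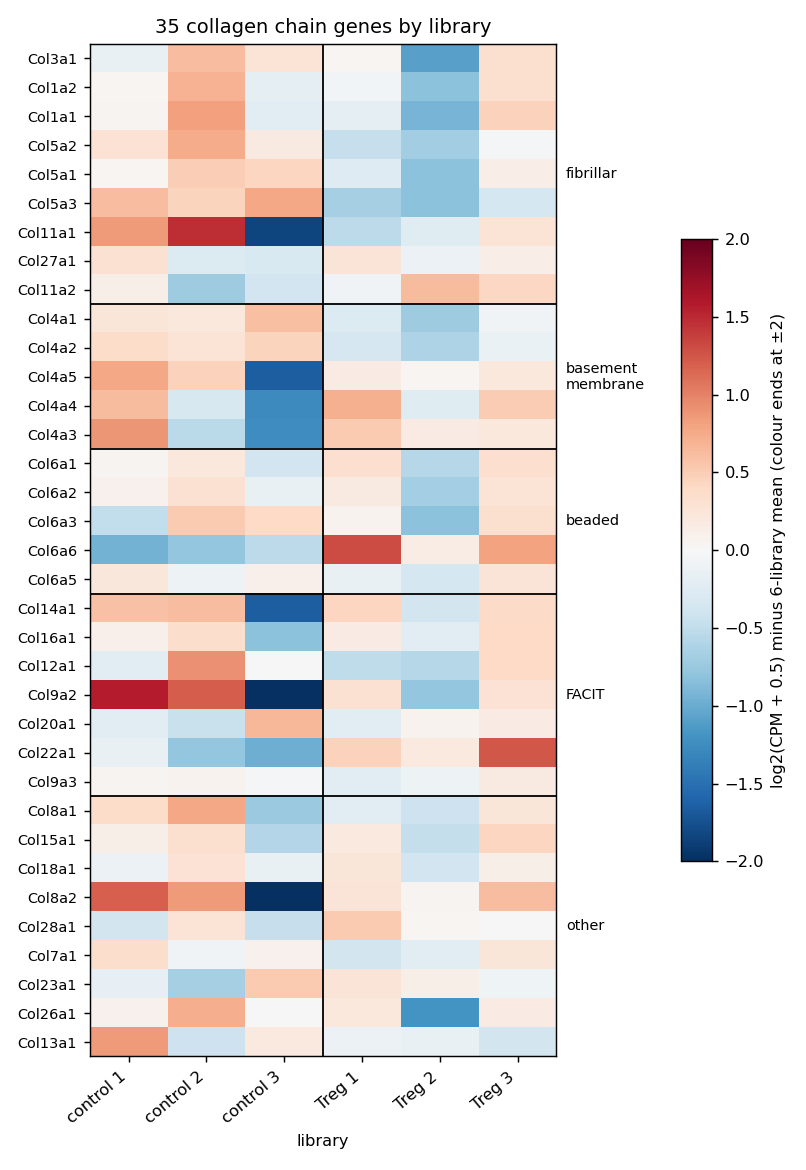
Deviation of log2(CPM + 0.5) from the 6-library mean for the 35 tested collagen genes (rows, by class) in each library (columns), in red above and blue below, with the colour ending at 2 in either direction. Treg replicate 2 is blue for most fibrillar and beaded chains, and control replicate 3 is dark blue for Col11a1, Col4a5, Col4a4, Col14a1, Col9a2 and Col8a2.

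Across the whole family the libraries of each group were spread on both sides of the mean. The median deviation of the 35 genes from their 6-library mean was 0.11, 0.31 and −0.19 log2 units in control replicates 1 to 3 and 0.06, −0.36 and 0.26 in Treg replicates 1 to 3. Of the 35 genes 15 were lowest in Treg replicate 2, 13 in control replicate 3 and 0 in Treg replicate 3. In 13 genes control replicate 2 was the highest library. Such counts were not taken over all genes, so whether they are particular to collagen is not known. The fibrillar median was 0.61 in control replicate 2 and −0.82 in Treg replicate 2, the widest spread of any class between those libraries. Control replicate 3 was more than 2-fold below each other library for 6 of the 35 collagen genes (Col11a1, Col4a5, Col4a4, Col14a1, Col9a2 and Col8a2), and above for 0. Of all 17365 tested genes it was below for 850 and above for 422. The medians that follow are for collagen genes only. In control replicate 3 the medians were −1.25 for the basement membrane class and −0.82 for FACIT, against −0.19 for the fibrillar class. Over all 35 genes, 23 had a fold change below 0 and the median was −0.18. It ran from −0.42 without Treg replicate 3 to −0.04 without control replicate 2 or Treg replicate 2, and was −0.53 without control replicate 3 and Treg replicate 3.

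The make-up of the collagen signal was then compared as the share each type held of the summed CPM per kb of the 35 genes, which does not depend on the scaling between libraries. Types were joined after their values were seen. Type V chains held 8.42%, 8.17% and 9.05% of the signal in the controls and 5.99%, 7.77% and 6.50% in the Treg libraries. Type VI chains held 9.88%, 8.89% and 8.94% and then 13.0%, 11.6% and 11.1%. The multiplexins of types XV and XVIII held 3.87%, 3.35% and 2.55% and then 4.64%, 4.81% and 4.37%. In these 3 types the groups did not overlap, with type V lower and types VI, XV and XVIII higher in the Treg libraries. The means were 8.55% ± 0.454 and 6.75% ± 0.917 for type V, 9.24% ± 0.560 and 11.9% ± 0.973 for type VI, and 3.26% ± 0.667 and 4.61% ± 0.220 for types XV and XVIII. Each had a two-sided exact permutation p of 0.10, the smallest that 3 against 3 allows, and 0.267 after Benjamini-Hochberg adjustment over the 8 shares. Neither value covers the choice of which types to join, so these p-values lend the shares no support. Type I (22.7% ± 3.87 and 23.2% ± 2.04), type III (27.4% ± 4.24 and 26.4% ± 3.99) and type IV from Col4a1 and Col4a2 (20.1% ± 5.15 and 16.3% ± 2.72) overlapped. The type IV difference of −3.74 percentage points ran from −6.47 without control replicate 2 to −1.35 without control replicate 3, and was −0.34 without both replicates 3. Shares sum to a whole, so a higher share of a type can come from less of another. For the main type VI chains, and for Col15a1 and Col18a1, the levels themselves overlapped, as given above.

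**Figure D4:**
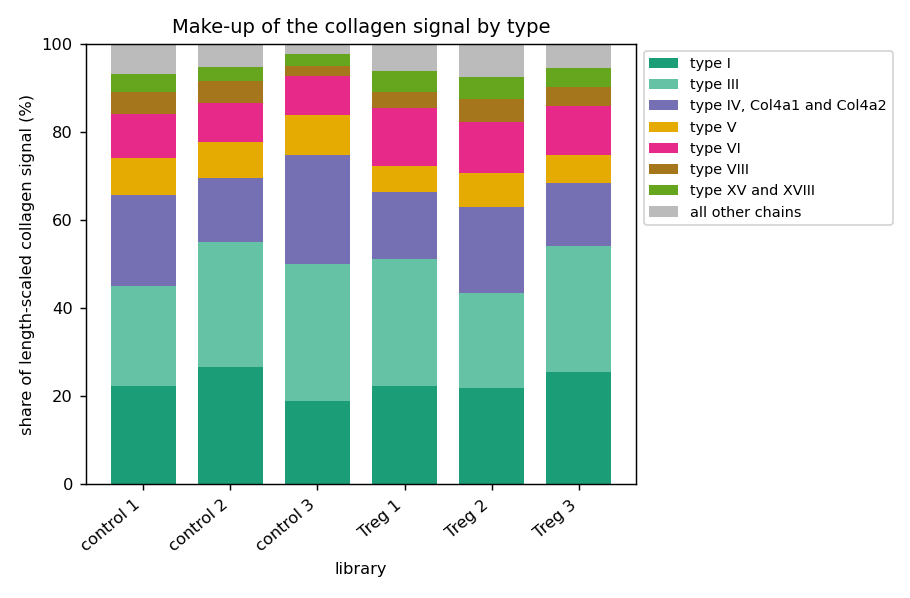
Share of the length-scaled collagen signal (percent of summed CPM per kb, stacked to the whole) held by each collagen type in each library. Type V is 8.17% to 9.05% in control and 5.99% to 7.77% in Treg libraries, and type VI 8.89% to 9.88% and 11.1% to 13.0%.

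Ratios between chains were taken within each library, for 15 pairs in which both chains had at least 10 counts in each library. Some pairs share a molecule or a fibril, and others, such as Col1a1 to Col4a1, do not. Some partner chains kept close ratios while their levels varied, and others did not. Col1a2 to Col1a1 lay between 1.21 and 1.45 in the 6 libraries, with an SD of 0.11 on the log2 scale where the levels of the chains had SDs of 0.51 and 0.60. Col4a2 to Col4a1, the overlapping head-to-head pair shown above, lay between 0.657 and 0.799, with an SD of 0.11 against 0.43 and 0.46. Col6a2 to Col6a1 lay at 0.961, 1.01 and 1.10 in the controls and at 0.845, 0.873 and 0.901 in the Treg libraries. This was the 1 pair of 15 whose groups did not overlap, a log2 difference of −0.23 with an exact permutation p of 0.10, the smallest possible, and 1.00 after adjustment over the pairs. The head-to-head pair Col4a4 and Col4a3 had a looser ratio, 1.62 to 2.68, with an SD of 0.30 against 0.81 and 0.87 for the levels. Col5a2 to Col5a1 lay between 1.15 and 1.62 (SD 0.23 against 0.52 and 0.49), and Col3a1 to Col1a1 between 2.33 and 3.83 (SD 0.30 against 0.59 and 0.60), highest in control replicate 3. Col6a3 to Col6a1, of the same type VI molecule, ran from 0.453 to 1.13, with an SD of 0.48 that was above the 0.39 of Col6a1 itself.

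In 4 further pairs control replicate 3 lay far below the rest. Col8a2 to Col8a1 was 0.00318 in control replicate 3 and 0.0314 to 0.0529 elsewhere, Col4a5 to Col4a1 was 0.0204 there and 0.118 to 0.167 elsewhere, and Col11a1 to Col5a1 was 0.0166 there and 0.0694 to 0.168 elsewhere. Col14a1 to Col12a1 was 0.903 there and 2.33 to 5.53 elsewhere. Without that library the log2 differences between the groups of these 4 pairs went from 1.17 to −0.05, from 0.99 to 0.09, from 0.32 to −0.77 and from 0.77 to 0.12. Col5a3 to Col5a1 was 0.265, 0.171 and 0.226 in the controls and 0.133, 0.176 and 0.125 in the Treg libraries, a log2 difference of −0.60 in which Treg replicate 2 overlapped control replicate 2 (exact permutation p = 0.20). Col1a1 to Col4a1, interstitial against basement membrane collagen, was 0.718, 1.25 and 0.460 and then 0.864, 0.702 and 1.18. These groups overlapped, with a log2 difference of 0.27 (exact permutation p = 0.70).

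**Figure D5:**
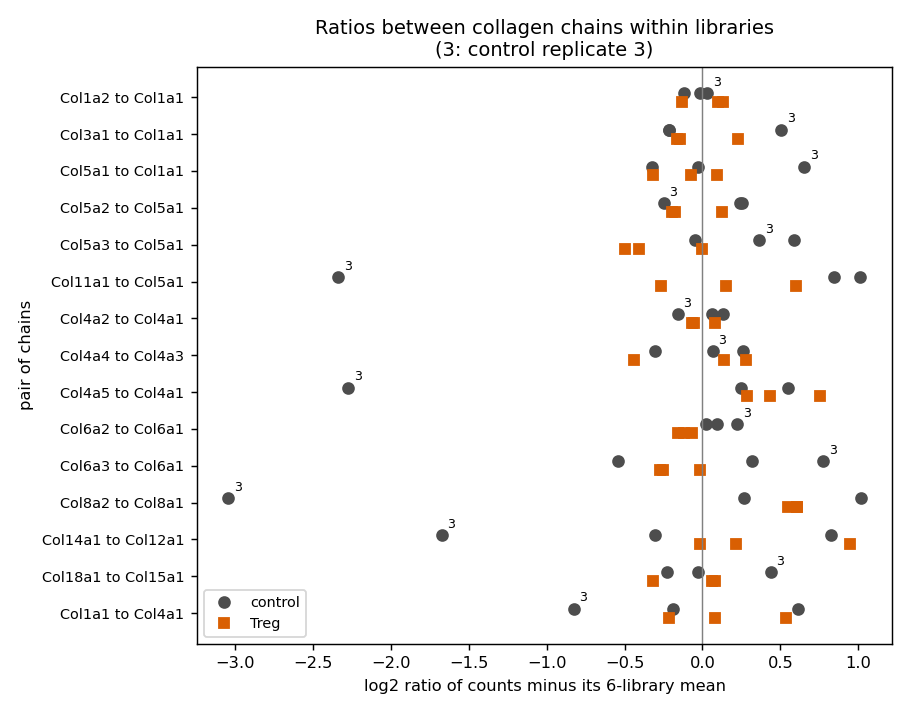
Log2 ratio of counts for 15 pairs of collagen chains within each library, minus the pair's 6-library mean, for control (circles) and Treg (squares); the digit 3 marks control replicate 3. Points of Col1a2 to Col1a1 and Col4a2 to Col4a1 lie close to 0, and control replicate 3 lies far to the left for Col8a2 to Col8a1, Col11a1 to Col5a1, Col4a5 to Col4a1 and Col14a1 to Col12a1.

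Genes that make, join, bind and remove collagen were taken from 9 lists, 105 of 111 of them tested. By edgeR 0 had an adjusted p under 0.05. At an unadjusted p under 0.05 there were 17 lower and 6 higher in the Treg libraries (21.9%, against 16.5% of all genes), and the median log2 fold change was −0.17. All 6 genes for crosslinking enzymes had a fold change below 0, their median was −0.88, and for 5 of the 6 the groups did not overlap, where 52.0% of all genes were below 0 and 11.7% did not overlap with Treg lower. Lox, the lysyl oxidase that crosslinks fibrils, stood at 112, 215 and 280 CPM in the controls and at 41.5, 44.8 and 77.1 in the Treg libraries (−1.89, edgeR adjusted p = 0.132). Loxl3, a relative, stood at 54.8, 63.9 and 38.1 CPM and at 24.7, 24.8 and 35.4 (−0.88, edgeR adjusted p = 0.183). Each Treg library lay below each control for both.

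The 15 genes for hydroxylation and glycosylation were divided, 8 below 0 and 7 above. P4hb, a subunit of prolyl hydroxylase and a disulfide isomerase, averaged 404 ± 72.4 CPM in control libraries and 254 ± 35.8 in Treg libraries (−0.67), and P3h2, a prolyl hydroxylase active on type IV collagen, had −0.58. P4ha1, a catalytic subunit that pairs with P4hb, had 0.62 and Colgalt2, a collagen galactosyltransferase, 1.05 (edgeR adjusted p = 0.198, 0.237, 0.280 and 0.293 for the 4 genes). The fold changes of P4hb and P4ha1 thus had opposite signs, and neither passed the threshold. Of the 9 genes for folding and secretion 6 were below 0, with Creb3l1, a transcription factor that drives collagen secretion, at 11.0 ± 3.92 and 4.75 ± 1.19 CPM (−1.22, edgeR adjusted p = 0.165) and Tmem38b, an ion channel of the endoplasmic reticulum, at −0.50. Of the 9 genes for propeptide processing 5 were below 0, and Furin, which activates processing proteases, had −0.51 (edgeR adjusted p = 0.165).

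The 15 fibril assembly genes had a median of 0.54, and 9 of them were above 0. Podn, the leucine-rich proteoglycan podocan, averaged 10.6 ± 2.24 and 21.6 ± 3.15 CPM (1.03, edgeR adjusted p = 0.120), and Dpt, dermatopontin, had 0.54. Of the 18 genes for degradation and uptake 12 were below 0. Mmp14, a membrane-bound collagenase, had −1.11 (edgeR adjusted p = 0.0989), Ctsl, a lysosomal protease, averaged 333 ± 40.9 and 190 ± 15.4 CPM (−0.81, edgeR adjusted p = 0.116), and Mmp15 had 0.51. Of the 9 receptor genes 5 were below 0, with Itgb1, the shared chain of the collagen-binding integrins, at 763 ± 80.1 and 559 ± 43.1 CPM (−0.45, edgeR adjusted p = 0.249). The 11 partners of type IV collagen in the basement membrane, laminins and nidogens among them, had a median of −0.09, with 0 at an unadjusted p under 0.05 by edgeR. Of the 13 profibrotic signal genes 11 were below 0, with Tgfb2 at 54.8 ± 7.14 and 32.4 ± 7.02 CPM (−0.76, edgeR adjusted p = 0.164) and Ccn2 at −0.63.

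Markers of the cell types that make collagen were set beside these values. The summed level of 10 fibroblast markers spanned 2177 to 2583 CPM for the controls and 2790 to 2899 for Treg, with 7 of 10 fold changes above 0. Within that sum Gsn, gelsolin, averaged 428 ± 126 and 891 ± 150 CPM (1.06, edgeR adjusted p = 0.156). Dcn, decorin, stood at 564 to 760 and 787 to 849 CPM. Fbln2, fibulin 2, was in the other direction, at 465 ± 142 and 240 ± 30.5 CPM (−0.95, edgeR adjusted p = 0.168). Pdgfra, a defining marker, stood at 193 CPM in control replicate 3 and at 68.0 to 89.9 elsewhere. The means of Gsn differed by more than the gap between the groups' sums. The sums therefore leaned on 1 gene. Over the list the median log2 fold change was 0.31. By edgeR 3 of 10 markers were higher and 1 lower at an unadjusted p under 0.05, against 8.23% and 8.31% of all genes. Whether fibroblast content differed was not tested. The 10 markers of activated fibroblasts had 8 fold changes below 0 and summed to 1392 to 2769 and 1142 to 1818 CPM. Of the 10 endothelial markers 7 were above 0 (669 to 963 and 782 to 915 CPM), and smooth muscle and pericyte markers, at 819 to 1045 and 1038 to 1202 CPM, had 5 above and 5 below, among them Abcc9 at 1.02, Myh11 at 0.68 and Cspg4 at −0.48 (edgeR adjusted p = 0.114, 0.148 and 0.207).

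Several other marker lists moved with the groups or with control replicate 3. The 10 Schwann cell markers together spanned 24.4 to 30.1 CPM in the control group and 33.0 to 39.4 in the Treg group, with log2 fold changes of 1.20 for Cdh19 and 1.53 for Gfra3. Cartilage and valve markers summed to 5.95 to 14.5 and 16.1 to 25.4 CPM, with Cnmd at 2.99 (2 to 3 and 13 to 29 counts) and Acan at 0.96 (6 to 9 and 11 to 20 counts), both of which passed the filter through their Treg libraries, and Matn1 and Ucma at 0 to 2 counts and Snorc at 0. The 8 atrial markers summed to 267 to 1496 and 626 to 1083 CPM, with Stard10 at 1.33 and Sln at 398 counts in Treg replicate 3 and 0 to 3 elsewhere. Neutrophil markers summed to 136 CPM in control replicate 3 and 21.3 to 36.8 elsewhere, and erythroid genes to 310 CPM there and 1089 to 2872 elsewhere. Adipocyte markers summed to 1055 CPM there and 391 to 510 elsewhere, with Adipoq, Plin1, Lep, Ucp1 and Retn at no more than 10 counts in each library and Cidea at −0.98. Ventricular muscle markers summed to 38760 to 56613 and 46744 to 62951 CPM, with Myl2 at 0.59, Pln at 0.56 and Actn2 at −0.35. Macrophage markers, at 455 to 1087 and 470 to 672 CPM, and epicardial markers, at 8.50 to 13.1 and 8.80 to 13.7 CPM, overlapped. The part of these cell types in the collagen values was not tested.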

How the data were processed

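Left ventricular RNA was sequenced in 3 control and 3 Treg libraries (stranded mRNA, paired reads of 101 bp, per the labels' protocols). The authors deposited estimated counts per Ensembl gene, not normalized, of which 46.5% to 50.0% of the values above 0 are fractional. The sources used here do not say why, nor whether counting used strand. The tools named are HISAT2 2.1.0, featureCounts 2.0.6, Cuffdiff 2.2.1 and Trimmomatic 0.39, with GRCm38 as the build, per the submitters' processing notes, which give no roles. A further 6 columns of the table match no sample listed here and were not used.

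GENCODE M21 (GRCm38) gave symbols, types and coordinates for 47224 IDs, and 505 had no match. Counts were rounded (no total changed by over 0.00866%), filtered with filterByExpr (17365 genes), scaled with TMM and tested two-sided with edgeR 4.0.16 in R 4.3.3 by robust quasi-likelihood without covariates, with Benjamini-Hochberg adjustment over all genes tested and a threshold of 0.05. The test had been written for whole counts. SE was taken as the fold change over the root of F. DESeq2 1.42.0 and limma 3.58.1 were alternatives. The labels do not say that each library is a separate animal, so p-values measure the spread between libraries, which may be technical. Every pair of libraries differed by more than counting noise, with a chi-square of at least 19.3 per degree of freedom.

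Length scaling used the longest APPRIS principal transcript. The members, classes, chain pairs and lists were chosen with earlier results of these data known, so no p of a gene was adjusted over a list. Exact permutation p-values of ratios and shares were adjusted over the pairs and over the shares. Described in full were, in each class, the 3 tested genes with the highest mean CPM and the 3 with the smallest p, with Col1a1, Col1a2 and Col3a1, and of each other list up to 2 genes in each direction at an unadjusted p under 0.05. Other genes were named after their values were seen.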

Additional observations from a re-analysis of the deposited data

How the results depend on the processing

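Of the 26 collagen genes described in full, 18 kept their direction over 16 alternatives (15 for Col22a1, which a filter at a mean of 1 CPM removed), among them the 6 whose groups did not overlap. For those 6 genes omitting libraries could not turn the sign, as every Treg library lay to one side of every control. The other alternatives refitted the same libraries, so the kept direction of these genes adds no support. No scaling moved the median of all genes by over 0.1 log2 units. Each scaling brings that median near 0, so this is no check on the collagen values. With DESeq2 650 genes and 6 collagen genes were called, with limma-voom and sample quality weights 264 and 1, and without a filter 38 and 1. Leaving out 1 library gave 0 to 230 genes and 0 to 1 collagen genes, the highest of each without control replicate 3. Without control replicate 3 and Treg replicate 3, an alternative chosen after seeing the data, 119 genes and 1 collagen gene were called, and the median log2 fold change was −0.53 for all chains, −0.81 for fibrillar, −0.53 for basement membrane, −0.40 for beaded, −0.52 for FACIT and −0.56 for other chains. With 1 library left out, medians ran from −0.42 to −0.04 for all chains, −0.79 to −0.11 for fibrillar, −0.49 to 0.39 for basement membrane, −0.28 to 0.14 for beaded, −0.22 to 0.03 for FACIT and −0.36 to −0.03 for other chains.

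The sign turned in 8 genes, all with changes below their SE. With limma-voom Col4a5 had 0.28 and Col9a2 0.21. With quality weights Col14a1 had −0.17, Col15a1 −0.05 and Col16a1 −0.00, and without a filter Col18a1 had 0.01. Leaving out 1 library gave −0.41 to 0.32 for Col14a1, −0.13 to 0.32 for Col15a1, −0.10 to 0.42 for Col16a1, −0.14 to 0.16 for Col18a1, −0.49 to 0.39 for Col4a5, −0.05 to 0.35 for Col6a1 and −0.28 to 0.14 for Col6a2. Without control replicate 3 and Treg replicate 3 Col14a1 had −0.52, Col15a1 −0.34, Col16a1 −0.26, Col6a1 −0.20, while Col18a1 (−0.15) and Col6a2 (−0.40) kept their sign. Ratio differences turned for Col3a1 to Col1a1 (−0.18 to 0.18 with 1 library left out, 0.24 without both replicates 3), Col5a1 to Col1a1 (−0.41 to 0.08, 0.19), Col11a1 to Col5a1 (−0.77 to 0.91, −0.76), Col4a2 to Col4a1 (−0.11 to 0.03), Col4a4 to Col4a3 (−0.17 to 0.21), Col8a2 to Col8a1 (−0.05 to 1.97, −0.03), Col18a1 to Col15a1 (−0.26 to 0.07, 0.21) and Col1a1 to Col4a1 (−0.08 to 0.64, −0.28). The cause was not tested.

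Libraries of the same replicate number were not more alike than others. Correlations of their deviations were −0.116, −0.225 and 0.046, against −0.242 to 0.299 for different numbers. With 3 libraries per group this cannot show whether they were paired in the experiment. With the replicate number as a block 0 genes and 0 collagen genes were called, as without it, and Col4a5 had 0.24. An exact permutation test of 3 against 3 cannot reach 0.05, so the ratios and shares could not pass a threshold. Low counts limit Col22a1 and the 9 genes not tested.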
